A study of Canis lupus familiaris with 12 samples.

Results

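miR-21 was the most abundant miRNA in every small RNA library of the canine mammary gland tumor lines CHMm and CHMmTAM, and it is described here as the entry cfa-miR-21, 1 row of the 453 mature canine miRNAs listed by the authors. The row was chosen by its name because of its share of the reads, so its shares and its difference between the lines are given as a description, with no test. CHMm is a canine mammary gland tumor line from a metastatic lesion, and CHMmTAM is the tamoxifen (TAM)-resistant line derived from it over 10 months of rising TAM up to 10 μM, followed by 1 month at that dose and 1 week without drug. Per the labels, phenol-red-free medium with steroid-depleted serum was used for both lines. 3 small RNA libraries of each line were compared. All libraries of CHMmTAM come from 1 resistant line, and separate cultures are not stated, so p-values measure the spread between these libraries, which may be technical. Total counts per library ranged from 7512659 to 12482211.

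A mature miRNA is a short RNA that guides Argonaute proteins to partly complementary sites in mRNAs, where pairing of its seed lowers the stability and translation of the target. miR-21 is one of the most studied oncogenic miRNAs and is abundant in many epithelial tumors, including breast cancer. Its known targets include the tumor suppressor PDCD4, an inhibitor of translation initiation, and its transcription is induced by STAT3 and AP-1. In the RefSeq genes of the dog assembly UU_Cfam_GSD_1.0, the nearest protein-coding genes listed before and after MIR21 are PTRH2 and TUBD1. Whether a protein-coding gene overlaps MIR21 is not given here. Target mRNAs were not analysed here.

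miR-21 had 3882933, 5746646 and 4488104 counts in CHMm replicates 1, 2 and 3. In CHMmTAM replicates 1, 2 and 3 it had 6703876, 5971557 and 4432916 counts. These counts follow the depth of the libraries, so the share of all counts was used to compare them. The shares were 51.7%, 50.2% and 50.9% in CHMm, and 53.7%, 54.0% and 54.5% in CHMmTAM. Every library of CHMmTAM lay above every library of CHMm, and the nearest libraries of the lines were 2.02 percentage points apart. A lack of overlap in the share was common in these data, since 48.6% of the 284 tested miRNAs showed it. The mean share was 50.9% ± 0.748 (SD, n = 3) in CHMm and 54.0% ± 0.391 (SD, n = 3) in CHMmTAM. Counting error was far smaller than the spread between replicates, with 95% Wilson intervals from 51.65% to 51.72% in CHMm replicate 1 and from 54.44% to 54.51% in CHMmTAM replicate 3. In bulk RNA, more cells with a miRNA and more of it per cell cannot be told apart, and shares do not give the amount of miR-21 per cell.

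The remaining miRNAs divided 48.3%, 49.8% and 49.1% of the counts in CHMm and 46.3%, 46.0% and 45.5% in CHMmTAM. miR-21 therefore had 1.04 ± 0.0311 counts per count of all other miRNAs together in CHMm, and 1.18 ± 0.0185 in CHMmTAM (SD, n = 3 each). The evenness of a library was summarised by its effective number of miRNAs, the exponential of the Shannon entropy, which is the number of equally abundant miRNAs that would give the same diversity. This number was 11.7 ± 0.316 in CHMm and 10.4 ± 0.171 in CHMmTAM, without overlap. With miR-21 left out, it was 36.8 ± 0.214 in CHMm and 36.7 ± 0.176 in CHMmTAM, and the lines overlapped. Among the miRNAs other than miR-21, 9 held 50% of the counts, 34 held 90% and 87 held 99%.

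**Figure D1:**
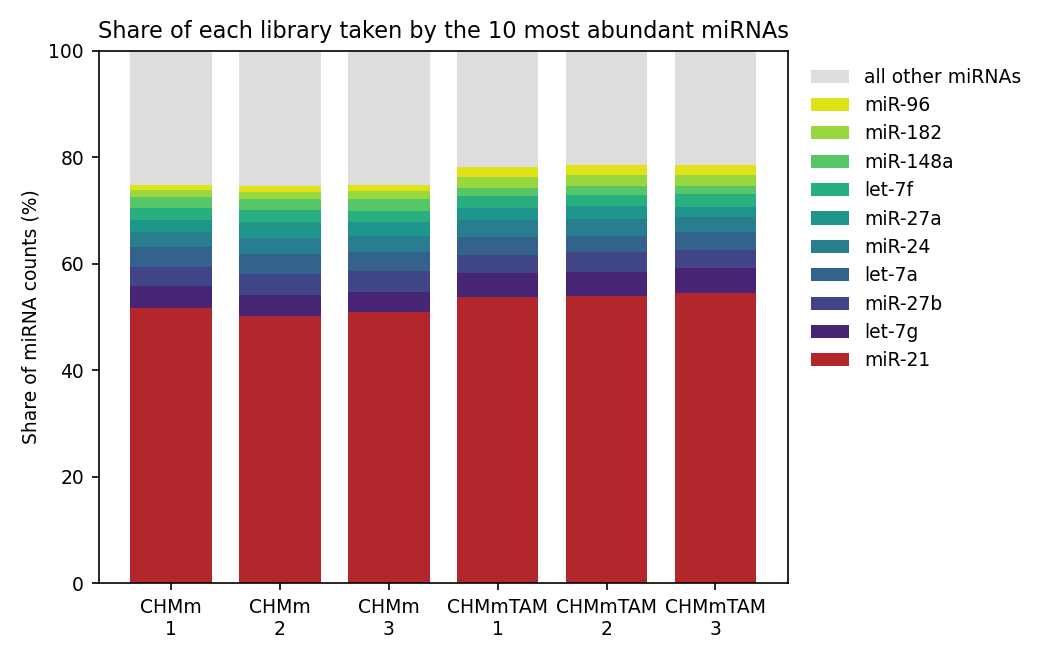
Stacked bars show the percentage of all miRNA counts in each of the 6 libraries taken by miR-21 (red), by the next 9 miRNAs in order of mean share, and by all others (grey). miR-21 fills 50.2% to 51.7% of the CHMm bars and 53.7% to 54.5% of the CHMmTAM bars, and the 10 miRNAs together fill 74.6% to 74.9% and 78.1% to 78.5%. The 10 are the same in every bar. With the 10 largest of each library instead, the range is 76.1% to 76.6% in CHMm and 78.1% to 78.5% in CHMmTAM.

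No other miRNA came near this level. The largest share of any other miRNA in a library was 3.91% to 4.04% in CHMm and 4.50% to 4.76% in CHMmTAM, and it belonged to let-7g in 5 libraries and to miR-27b in CHMm replicate 3. Reads were counted per mature miRNA and not divided by length, and how efficiently each miRNA is captured in a library was not measured, so the shares describe reads. Ratios of miR-21 to another miRNA within a library do not depend on any scaling between libraries. They were compared for the next 9 miRNAs by mean share, namely let-7g, miR-27b, let-7a, miR-24, miR-27a, let-7f, miR-148a, miR-182 and miR-96. For 6 of the 9, the ratios of one line lay outside those of the other, 3 with a higher and 3 with a lower ratio in CHMmTAM. Over the other 283 tested miRNAs, 49.1% showed such a lack of overlap in this ratio.

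let-7g, of the let-7 family that restrains RAS and MYC, was outnumbered by miR-21 12.8-, 12.6- and 13.4-fold in CHMm and 11.8-, 12.0- and 11.4-fold in CHMmTAM. Its ratios were thus lower in all CHMmTAM libraries. The corresponding ratios for let-7a were 13.5, 13.4 and 14.1 in CHMm and 15.9, 17.6 and 16.0 in CHMmTAM, so this sister of let-7g moved against miR-21 in the opposite direction. The ratios for let-7f overlapped, at 22.9 to 24.0 in CHMm and 23.3 to 25.2 in CHMmTAM. The third member named here thus kept step with miR-21 within the spread of the libraries. The widest gaps were those of miR-148a, miR-182 and miR-96. miR-148a, known to repress DNA methyltransferases, was outnumbered 23.2 ± 1.37-fold in CHMm and 34.1 ± 2.41-fold in CHMmTAM (SD, n = 3 each). For miR-182 and miR-96, which are made from a common cluster and repress FOXO factors, the ratios were 39.1 ± 1.27 and 45.0 ± 2.26 in CHMm and 26.7 ± 0.753 and 29.0 ± 1.59 in CHMmTAM. miR-27b was outnumbered 13.3 ± 0.716-fold in CHMm and 15.6 ± 0.882-fold in CHMmTAM, without overlap. The ratios for miR-24 ran from 16.4 to 19.5 in CHMm and from 16.3 to 19.7 in CHMmTAM, and those for miR-27a overlapped at 22.8.

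**Figure D2:**
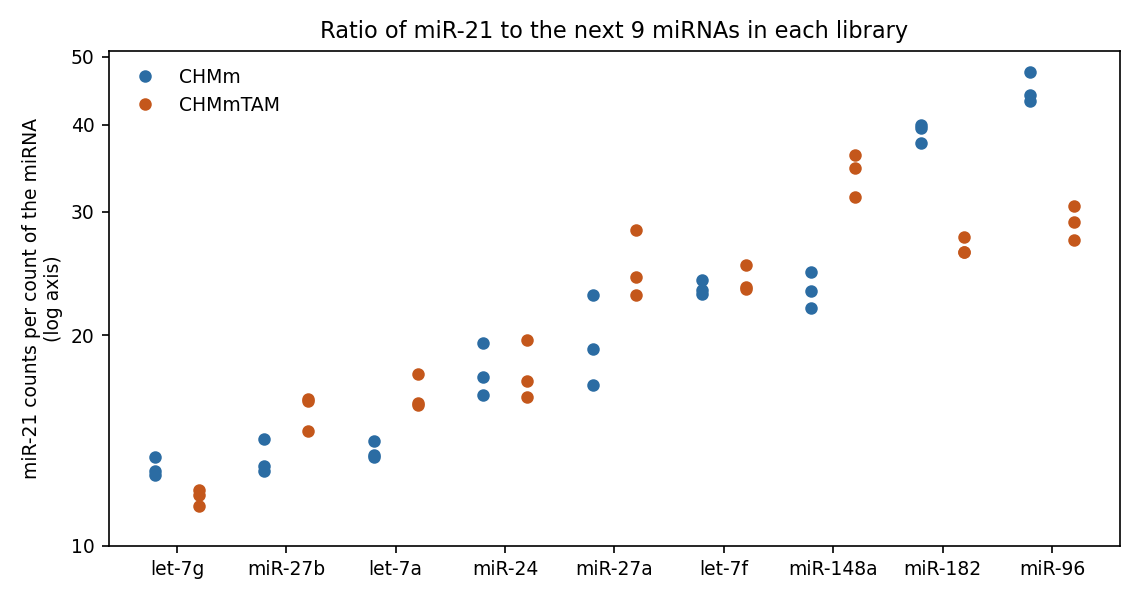
Points show, for each library, the counts of miR-21 per count of each of the next 9 miRNAs, on a log axis, with CHMm in blue and CHMmTAM in orange. let-7g is outnumbered 11.4- to 13.4-fold, and miR-96 moves from 43.3- to 47.5-fold in CHMm to 27.4- to 30.6-fold in CHMmTAM.

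The same 9 miRNAs were tested with all others by edgeR's quasi-likelihood test after TMM scaling, with Benjamini-Hochberg adjustment (FDR) over the 284 miRNAs with at least 10 counts in total. At an FDR below 0.05, 3 of the 9 were higher in CHMmTAM, 3 were lower and 3 did not pass. Among all tested miRNAs, 25.4% were higher and 18.7% lower by this rule. These shares, here and below, are not matched for abundance. Many tested miRNAs are scarce and have large standard errors, such as 0.87 for miR-8822 at 0.261 CPM (counts scaled to a common library size). let-7g rose by 0.23 on the log2 scale (SE 0.06, edgeR FDR = 0.000864), a direction that turned to -0.01 under upper-quartile scaling. let-7a fell by 0.18 on the log2 scale (edgeR FDR = 0.0092), which turned to 0.04 when totals without the 10 most abundant miRNAs were used. With library totals let-7a passed (-0.18, edgeR FDR = 0.00329), but not with the miR-21 reads taken out of them (-0.09, edgeR FDR = 0.199). Nor did it pass without CHMm replicate 1 (-0.14, edgeR FDR = 0.106), CHMm replicate 2 (-0.18, edgeR FDR = 0.0523) or CHMmTAM replicate 2 (-0.14, edgeR FDR = 0.0781). miR-27a fell by 0.27, but did not pass without CHMm replicate 2 (-0.18, edgeR FDR = 0.0838) or with totals without the 10 most abundant miRNAs (-0.05, edgeR FDR = 0.544). miR-148a fell by 0.47, while miR-182 and miR-96 rose by 0.64 and 0.72. None of the 9 passed the study's further threshold of 1 on the log2 fold change scale in either direction. miR-24, let-7f and miR-27b had log2 fold changes of 0.09, 0.05 and -0.14, each with a standard error of 0.06. miR-27b missed the threshold at an edgeR FDR of 0.055, and its call depended on the setting. It passed with library totals (-0.14, edgeR FDR = 0.0214) and upper-quartile factors (-0.38, edgeR FDR = 2.76e-06). It did not pass with totals without the miR-21 reads (-0.05, edgeR FDR = 0.528).

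Shares of a library sum to a fixed total, so each gain in share is matched by losses elsewhere. The mean share of miR-21 was 3.11 percentage points larger in CHMmTAM, which is 43.7% of the 7.12 points gained by all miRNAs with a larger mean share there. The largest losses were those of miR-221 and miR-222, a pair that represses the cell cycle inhibitor p27 and the estrogen receptor, at -1.31 and -1.19 points. The next gains were those of miR-96 at 0.735, miR-182 at 0.72 and let-7g at 0.662 points. miR-21 thus held the largest change in share of any miRNA in points. Relative to its own level, its change was small, at 0.086 on the log2 scale of the share. These are differences of means without a test.

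Whether miR-21 is called higher or lower depended on how the libraries were scaled. After TMM scaling, miR-21 had 531000, 495000 and 502000 CPM (counts scaled to a common library size) in CHMm replicates 1, 2 and 3. In CHMmTAM it had 525000, 541000 and 557000 CPM. CHMm replicate 1 lay above CHMmTAM replicate 1, so the lines overlapped, whereas 51.8% of the tested miRNAs did not overlap on this scale. The fitted log2 fold change of miR-21 was 0.09 (standard error 0.06) with TMM, and 0.09 (standard error 0.04) with library totals. Over 8 scalings it ran from -0.15 with upper-quartile factors to 0.31 with totals that leave out the 10 most abundant miRNAs. These 10 were fixed by mean share over all libraries, so miR-221 and miR-222 stayed in those totals. Their mean shares were 2.02% and 1.95% in CHMm and 0.704% and 0.757% in CHMmTAM. How far this pair sets the results under those totals was not tested. The log2 fold change of miR-21 is therefore given for each scaling. It was positive under 7 scalings and negative under upper-quartile factors. The libraries of the lines overlapped under 3 of the 8, which were TMM, TMM computed without the miR-21 row and RLE size factors. Under upper-quartile factors they did not overlap, but in the opposite direction, with 534000 to 573000 CPM in CHMm and 480000 to 528000 CPM in CHMmTAM.

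**Figure D3:**
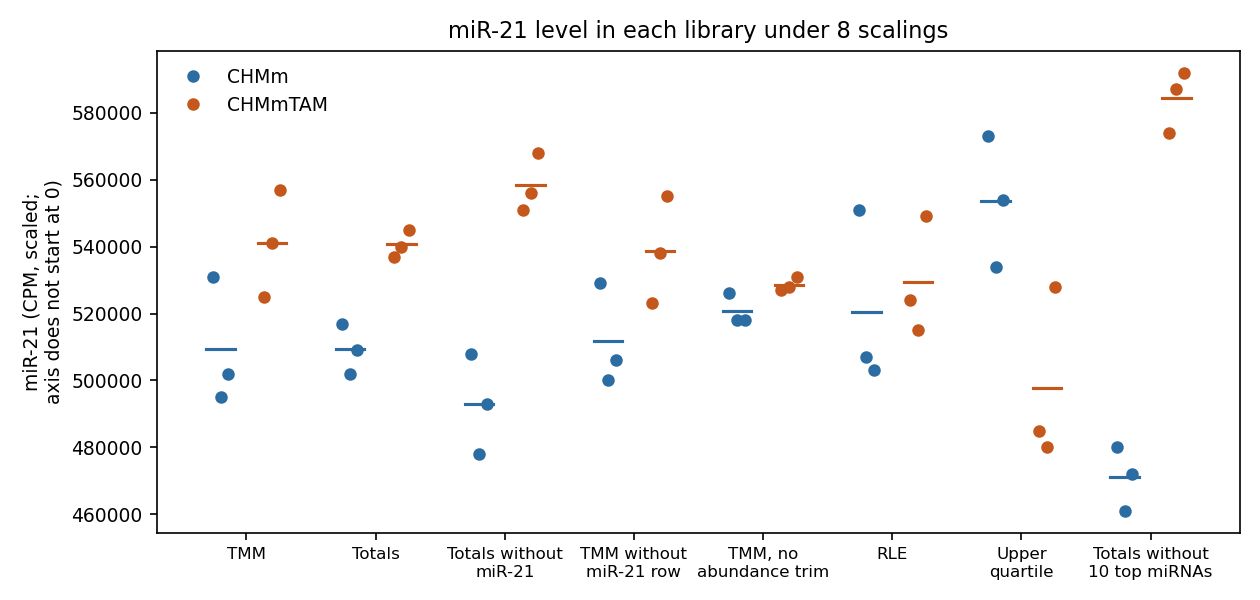
Points show miR-21 in CPM in each library under 8 scalings, with horizontal lines at the means of CHMm (blue) and CHMmTAM (orange) and an axis that does not start at 0. The order of the lines turns only under upper-quartile factors, where CHMm lies at 534000 to 573000 and CHMmTAM at 480000 to 528000.

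miR-21 lay near the middle of the log2 fold changes. Ordered from the highest to the lowest, it ranked 137 of 284 with TMM. The median log2 fold change of the other 283 miRNAs was 0.06 with TMM, and miR-21 lay 0.03 above it. A scaling moves all miRNAs nearly alike, so this distance and rank hardly change between the 8 scalings by construction. Leaving out 1 library can change them. Without each library in turn, miR-21 lay at a distance from -0.02 to 0.08 from the median of the others, below it in 3 of the 6 fits (without CHMm replicate 3, CHMmTAM replicate 2 or CHMmTAM replicate 3) and farthest above it without CHMmTAM replicate 1. The middle of the other miRNAs spanned from -0.27 at the lower quartile to 0.47 at the upper quartile. Upper-quartile factors moved the median of the others to -0.18, and totals without the 10 most abundant miRNAs moved it to 0.28. miR-21 moved with that median in both cases.

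**Figure D4:**
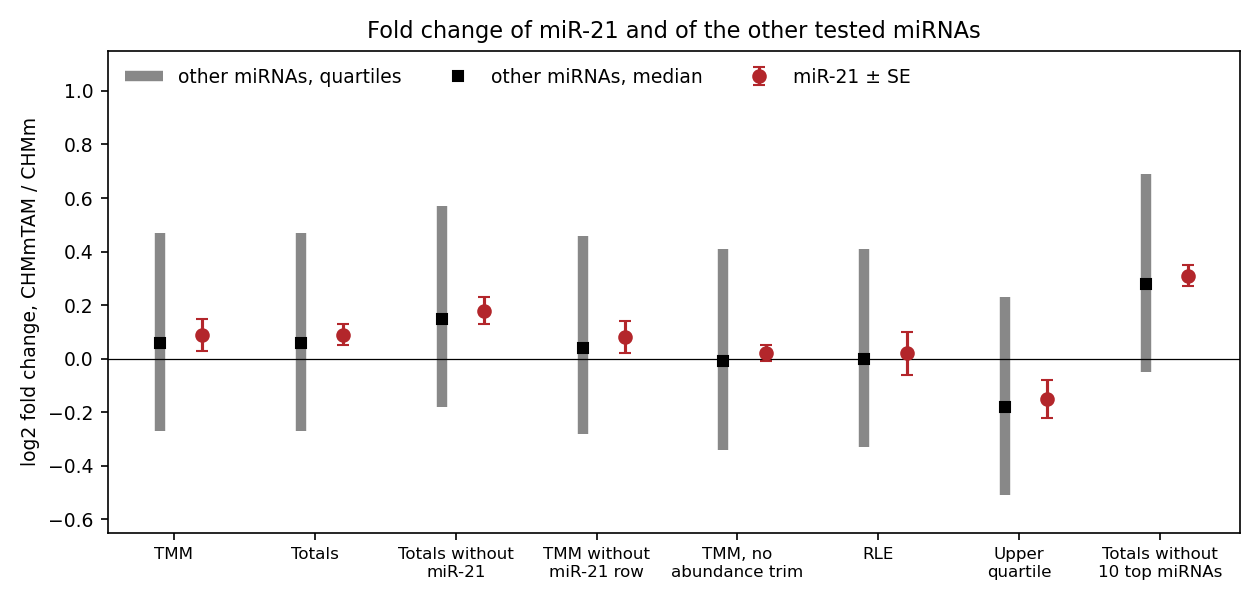
For each of 8 scalings, the red point shows the log2 fold change of miR-21 (CHMmTAM over CHMm) with its standard error, the black square the median of the other 283 tested miRNAs and the grey bar their lower to upper quartile. Both move together, 0.03 apart, from -0.15 and -0.18 with upper-quartile factors to 0.31 and 0.28 with totals that leave out the 10 most abundant miRNAs.

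TMM, the scaling used for the tests, did not use the log ratio of miR-21 itself. This method compares each library with a reference library, here CHMmTAM replicate 3, and takes a weighted mean of log ratios after removing 5% of the miRNAs at each end of abundance and 30% at each end of the ratio. The abundance step removed the 12 or 13 most abundant of 257 to 270 miRNAs, and miR-21 ranked 1 among them in each of the 5 comparisons. It would have passed the ratio step in all 5. Its row still took a place in both steps, and its reads stayed in the library totals used. Had the abundance step been left out, miR-21 alone would have carried between 79.0% and 86.8% of the weight. With that step left out, the log2 fold change of miR-21 was 0.02 and the median of the others was -0.01.

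The share of miR-21 also set how the other miRNAs compare when library totals are used. Removing its reads from the totals multiplied the CPM of every other miRNA by 2.04 ± 0.0311 in CHMm and by 2.18 ± 0.0185 in CHMmTAM (SD, n = 3 each). The difference between these factors raised the log2 fold changes of the other miRNAs by 0.095, or 1.07-fold. The limit that 3 counts set rose from between 0.24 and 0.399 CPM of all counts to between 0.519 and 0.827 CPM of the counts outside miR-21, and these limits cover counting error only. Log2 fold changes of 21 of the 283 miRNAs changed sign between both kinds of totals. By edgeR's quasi-likelihood test, 0 of these 21 passed an FDR of 0.05 with either kind, and 0 had an unadjusted p below 0.05. The shift between the totals was only 0.082 to 0.096, so a miRNA that changes sign lies close to 0 with both. That none passed is thus nearly given by construction.

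With library totals, 30 of the other miRNAs passed both thresholds of the study (FDR below 0.05 and more than 1 on the log2 fold change scale in either direction), 16 higher and 14 lower in CHMmTAM. With the miR-21 reads taken out of the totals, 32 passed, 19 higher and 13 lower. These are 10.6% and 11.3% of the other 283 tested, and 29 miRNAs were shared. let-7e was past the threshold only with the miR-21 reads included, at a log2 fold change of -1.05 against -0.95. miR-8827 and miR-1843 passed only without them, at 1.04 against 0.95 and at 1.05 against 0.96. miR-10a, a miRNA of the HOX clusters, passed only without them because its FDR moved from 0.0511 to 0.0209 by edgeR's quasi-likelihood test. It rests on 1, 12 and 8 reads in the CHMm libraries and 24, 12 and 16 in those of CHMmTAM, so the lines touched at 12. By FDR alone, 121 of the other miRNAs passed with library totals and 131 without the miR-21 reads (42.8% and 46.3%), of which 112 were shared.

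With TMM, taking the miR-21 row out before scaling changed little at both thresholds. By FDR alone, 129 of the other miRNAs passed instead of 125. Among those whose call changed was miR-27b, at an edgeR FDR of 0.055 with the row and 0.0258 without it. The log2 fold changes of the others moved by a median of -0.014, all 32 miRNAs past both thresholds (11.3% of those tested) stayed past them, and 1, miR-99b, was added. When the abundance step of TMM was left out so that miR-21 dominated the weights, the median moved by -0.066, 29 of the 32 were kept, miR-140, miR-10a and miR-411 were lost, and miR-99b was added.

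miR-21 was not among the 32. The most abundant of those, miR-221 and miR-222, were outnumbered by miR-21 25.3 ± 0.651-fold and 26.1 ± 0.227-fold in CHMm and 76.9 ± 2.23-fold and 71.6 ± 4.65-fold in CHMmTAM (SD, n = 3 each).

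**Figure D5:**
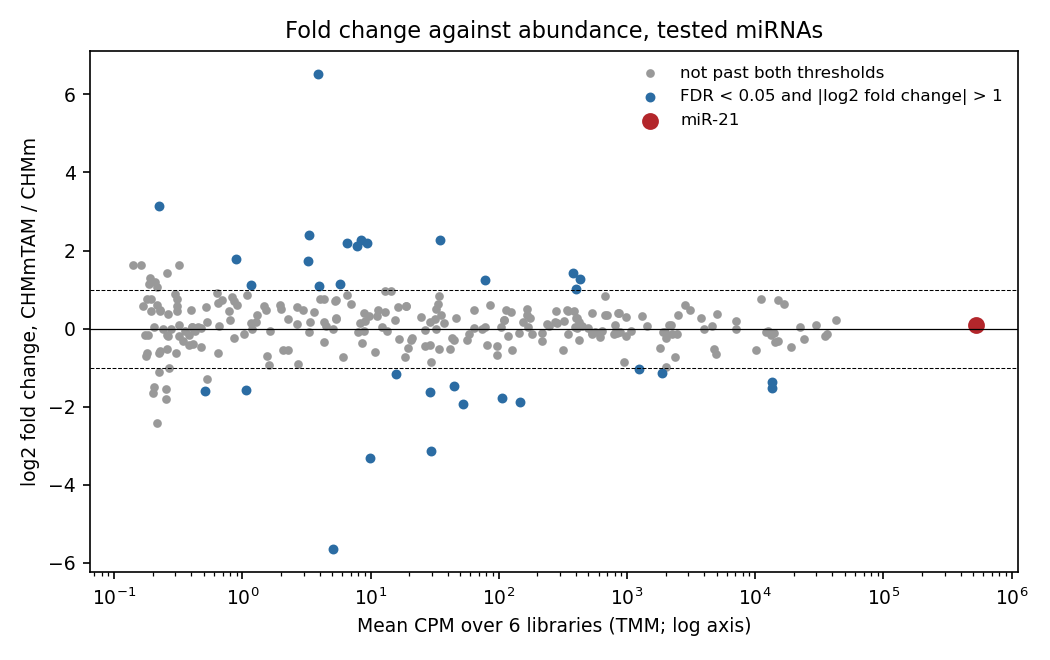
Each point is 1 of the 284 tested miRNAs, with its mean CPM over the 6 libraries on a log axis and its log2 fold change (CHMmTAM over CHMm, TMM). miR-21 (red) stands apart on the right at a log2 fold change of 0.09, while the 32 miRNAs past both thresholds (blue) all have less than 0.1 of its CPM.

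The miRNAs whose pattern over the 6 libraries was most like that of miR-21 were sought among the 116 others with at least 50 CPM on average, by the root-mean-square difference of their centred log2 CPM. They were miR-151 at 0.039, miR-98 at 0.043, let-7f at 0.045, miR-181c at 0.047 and miR-95 at 0.048, where the median over the 116 was 0.16. The SD of miR-21 itself over the 6 libraries was 0.065 on this scale, so these 5 are miRNAs that, like miR-21, differed little between any libraries. miR-98, a let-7 relative, had 2070 ± 68.6 CPM in CHMm and 2210 ± 64.3 CPM in CHMmTAM. miR-151 had 407 ± 16.2 CPM and 412 ± 11.2 CPM. Their log2 fold changes, which this choice keeps close to that of miR-21, lay between 0.02 and 0.09. All 6 libraries share their scaling, so this likeness is a description.

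Transcription factors that induce miR-21 also induce other miRNAs. Of 7 such miRNAs (miR-9, miR-146a, miR-146b, miR-155, miR-181b, miR-221 and miR-222, known to respond to NF-κB, STAT3 or AP-1), 1 was higher and 4 were lower in CHMmTAM at an FDR below 0.05, and 2 did not pass, where 25.4% of all tested miRNAs were higher and 18.7% lower. Scarce miRNAs, which pass less easily, are part of those shares, so an excess in the list cannot be read from them. Their median log2 fold change was -0.73, against 0.06 over all tested miRNAs, and it lay between -0.97 and -0.51 under the 8 scalings. A scaling moves all miRNAs nearly alike, so this range adds nothing to the comparison. These 7 were chosen with earlier results of these data known, and the pair miR-221 and miR-222 is among the lower members. miR-155, a miRNA of inflammatory and lymphoid cells, had 3080, 2960 and 2830 CPM in CHMm and 1750, 1750 and 1860 CPM in CHMmTAM. Its libraries did not overlap, and it fell by 0.73 on the log2 scale (SE 0.07, edgeR FDR = 1.19e-25). miR-181b, reported to act downstream of STAT3 together with miR-21, had 493, 500 and 460 CPM in CHMm and 808, 868 and 923 CPM in CHMmTAM. All of its CHMmTAM libraries were higher, at 0.84 on the log2 scale (SE 0.07, edgeR FDR = 7.14e-30). On the log2 scale miR-9 was at -0.06 and miR-146a, a negative regulator of NF-κB signaling, at -0.27 (edgeR FDR of 0.5 and 0.0864). miR-21 outnumbered miR-155 by 172 ± 4.92-fold in CHMm and 303 ± 5.78-fold in CHMmTAM.

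Of 12 miRNAs often called oncogenic beside miR-21, 6 were higher, 4 were lower and 2 did not pass an FDR of 0.05 with TMM. Among all tested miRNAs, 25.4% were higher and 18.7% lower with this scaling, again without matching for abundance. Under upper-quartile factors, 4 were higher and 5 lower, where 14.5% of the other 283 tested miRNAs were higher and 35.3% lower. With totals that leave out the 10 most abundant miRNAs, 8 were higher and 4 lower, against 38.9% and 12.0% of the 283. Against TMM, the number of higher members thus moved in the same direction as the share of all miRNAs under both settings. The number of lower members did so with upper-quartile factors, but stayed at 4 with the totals that leave out the 10 most abundant miRNAs. miR-155, miR-221 and miR-222 stand in both lists. The list holds 6 members of the miR-17 to miR-92a cluster, which drives proliferation downstream of MYC, and miR-19b and miR-92a are also made from a paralogous cluster. miR-18a, miR-19a, miR-19b and miR-20a rose by log2 fold changes of 0.45, 0.46, 0.34 and 0.37, and miR-17 and miR-92a were at 0.13 and 0.00 without passing the test. Differences between these members were not tested. The libraries of miR-19b overlapped between the lines. With upper-quartile factors miR-19b and miR-20a did not pass, at 0.10 and 0.13 (edgeR FDR of 0.405 and 0.136), and miR-19a had an adjusted p of 0.0503 with DESeq2. miR-20a had 4240, 4600 and 4270 CPM in CHMm and 4800, 6130 and 6040 CPM in CHMmTAM, so that the gap between the lines was narrower than the spread in CHMmTAM. miR-10b, linked to invasion, rose, and miR-210, the miRNA of hypoxia, fell. miR-21 outnumbered miR-210 by 2220 ± 31.6-fold in CHMm and 8710 ± 737-fold in CHMmTAM.

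Both lines expressed miRNAs of epithelial cells, namely the miR-200 family, miR-203 and miR-205. These 7 miRNAs summed to 25100 to 26500 CPM in CHMm and 22500 to 23700 CPM in CHMmTAM, with miR-200c the most abundant at 12800 ± 504 and 12300 ± 326 CPM. 6 blood-cell miRNAs summed to 4.92 to 6.29 CPM in CHMm and 11.9 to 15.0 CPM in CHMmTAM, of which miR-144 and miR-150 had at most 3 counts in any library. Of the 4 that could be tested, miR-142 and miR-486 were higher in CHMmTAM at an FDR below 0.05 and miR-223 and miR-451 did not pass. 4 stromal miRNAs summed to 39.7 to 47.6 CPM in CHMm and 23.8 to 28.8 CPM in CHMmTAM, mostly the entry named miR-199, the only one of the 4 to pass the FDR threshold, with a log2 fold change of -0.85. Among the epithelial miRNAs, 3 were higher and 2 lower at an FDR below 0.05 with TMM (25.4% and 18.7% of all tested), which became 0 higher and 4 lower under upper-quartile factors (14.5% and 35.3% of the other 283). The largest difference was that of miR-205, a miRNA of stratified and basal epithelium, with 6020, 6120 and 5850 CPM in CHMm and 3830, 3850 and 3730 CPM in CHMmTAM. Its libraries did not overlap, and it fell by 0.66 on the log2 scale (SE 0.06, edgeR FDR = 3.64e-22). The part of the blood-cell and stromal miRNAs in the share of miR-21 was not tested, and both sums lay below 0.01% of the CPM of each library.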

How the data were processed

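Small RNA was sequenced from 3 libraries each of CHMm and CHMmTAM. The deposited values are raw read counts for each mature miRNA of the dog, which the authors did not normalize. The labels list CanFam3.1, HISAT2 2.0.4 and BWA for the series without roles. The miRNA database, read trimming and handling of reads that match more than 1 miRNA are not given in the sources used here, and the last could move counts between related miRNAs. The 6 RNA-seq libraries were not analysed here.

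Libraries were grouped by their labels. miRNAs with at least 10 counts in total (284) were fitted with edgeR 4.0.16 (R 4.3.3) by the quasi-likelihood test with TMM factors, and p-values were adjusted by Benjamini-Hochberg over all 284. Alternatives used DESeq2 1.42.0 and limma 3.58.1. On simulated data, a mean of 88.5% of 60 miRNAs changed by a log2 fold change of 2 or -2 were recovered, with 0.6 false calls. Of the changed miRNAs above 1 CPM, 99.7% were recovered. The simulation took its mean levels from these libraries and used 1 coefficient of variation between replicates, 6%, for every miRNA. miR-21 was never among the changed miRNAs, so its effect on scaling was not simulated. Python 3.11.15 and SciPy 1.17.1 gave shares and intervals. The named miRNAs are miR-21, the next 9 by share, the 5 most similar patterns, those whose call changed with the miR-21 reads in the totals, and the lists of related miRNAs and markers. miR-99b, miR-140 and miR-411 were named after their values were seen. miR-21 and the lists were chosen with earlier results of these data known. A search for miRNAs with the seed of miR-21 was planned and not run, since mature sequences were not used here.

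Replicates of a line differed by more than sampling noise, with chi-square values per degree of freedom between 26.3 and 85.8, so none was treated as a repeated library.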

Additional observations from a re-analysis of the deposited data

How the results depend on the processing

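The share of miR-21 was between 50.6% and 51.3% in CHMm and between 53.8% and 54.2% in CHMmTAM in the fits that leave out 1 library. It was 68.1% and 69.0% when only the 10 miRNAs with the largest mean share over all libraries formed the total. Without each library, the log2 fold change of miR-21 ran from 0.07 to 0.13, the median of the others from 0.05 to 0.1 and the number of other miRNAs past both thresholds from 30 to 34. By FDR alone 125 passed instead of 32. For miR-21 and the median of the others, the log2 fold changes were 0.02 and -0.0037 with RLE size factors, 0.02 and 0.01 with DESeq2, 0.02 and -0.01 with TMM without the abundance step, 0.18 and 0.15 with totals without miR-21, 0.31 and 0.28 with totals without the 10 most abundant miRNAs, and -0.15 and -0.18 with upper-quartile factors. Against 53.1% of calls higher with TMM, 35.3% were higher with upper-quartile factors and 67.6% with totals without the 10 most abundant miRNAs. The equal replicate numbers are not stated to pair libraries. With a replicate block, 31 miRNAs passed both thresholds and miR-21 was at 0.09. Same-numbered libraries had correlated deviations of 0.06, 0.46 and -0.31, and 2 of the 6 correlated best with their own number.

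Among the 32 other named miRNAs outside the marker lists, 576 values under alternatives held 525 with the same direction and side of both thresholds together, 10 lost and 9 gained calls at both, and 32 changes of sign, none of a miRNA past both thresholds. By FDR alone, 21 of the 32 passed with TMM, and 18 of their 378 values under alternatives did not, in 7 miRNAs (let-7a, let-7g, miR-10a, miR-19a, miR-19b, miR-20a and miR-27a). Of the 198 values of the remaining 11 miRNAs, 30 passed. With upper-quartile factors the values that changed sign were let-7g -0.01, miR-24 -0.15, miR-98 -0.15, let-7f -0.18, miR-181c -0.18, miR-151 -0.22, miR-95 -0.21, miR-17 -0.11 and miR-92a -0.24. They were let-7f -0.01, miR-151 -0.05, miR-95 -0.04, miR-92a -0.06 and miR-181c -0.00089 with RLE size factors. With DESeq2 they were let-7f -0.01, miR-151 -0.04, miR-95 -0.04, miR-92a -0.06 and miR-181c -0.00082, and with TMM without the abundance step let-7f -0.01, miR-151 -0.05, miR-95 -0.04, miR-92a -0.06 and miR-181c -0.0041. miR-92a was also at -0.01 with TMM without the miR-21 row, and at -0.02 without CHMm replicate 2 and without CHMmTAM replicate 1. With totals without the 10 most abundant miRNAs, miR-27b was at 0.08, let-7a at 0.04 and miR-9 at 0.16. miR-9 was at 0.03 with totals without miR-21, and between -0.09 and 0.0027 when a library was left out. With TMM, let-7e lost its call without CHMm replicate 1 at -0.99, and miR-10a lost it without CHMm replicate 1, CHMmTAM replicate 1 or CHMmTAM replicate 3. miR-1843 gained a call without CHMm replicate 1 or CHMmTAM replicate 3, and miR-8827 without CHMm replicate 3 or CHMmTAM replicate 3. The cause of these changes beyond the scaling itself was not tested.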
